A study of Mus musculus with 8 samples.

Results

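The genes described here encode the enzymes that build ceramide from serine and palmitoyl-CoA, with a regulator of the first step. They were taken by symbol from the deposited liver table: the serine palmitoyltransferase genes *Sptlc1*, *Sptlc2* and *Sptssa*, the reductase gene *Kdsr*, the ceramide synthase genes *Cers2*, *Cers4*, *Cers5* and *Cers6*, the desaturase gene *Degs1* and the regulator gene *Ormdl3*. The choice was made with earlier results of these data known. All 10 symbols matched a single row each among the 55416 gene identifiers of the table. RNA was sequenced from 8 mouse liver libraries. The 4 HKO libraries carry the Alb-cre transgene (labelled Alb-cre+), in which Cre under the albumin promoter removes *Smpd3* in hepatocytes. The 4 FLOX libraries have no Alb-cre (labelled Alb-cre-), so an effect of Cre itself and an effect of losing *Smpd3* cannot be told apart. Both groups received the HFMCD diet for 9 weeks to induce steatohepatitis, and no group on another diet was compared here. The deletion is aimed at hepatocytes, and whether other cells keep *Smpd3* was not measured here. The labels give no age or sex and do not state whether the libraries stem from different animals, so p-values measure the spread between libraries.

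*Smpd3* encodes neutral sphingomyelinase 2, which releases ceramide from sphingomyelin. The de novo route is another source of the same lipid. Serine palmitoyltransferase, in the endoplasmic reticulum, joins serine to palmitoyl-CoA and sets the pace of the route. KDSR reduces the product to sphinganine, a ceramide synthase attaches a fatty acid, and DEGS1 introduces the double bond that turns dihydroceramide into ceramide. The ceramide synthases differ in the chain they prefer: CERS2 uses very long chains and is the main synthase of liver, CERS4 uses long to very long chains, and CERS5 and CERS6 make ceramides with palmitate chains. ORMDL proteins hold serine palmitoyltransferase back when ceramide is plentiful. Only RNA was measured here, not enzyme activity or ceramide.

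None of the 10 ceramide synthesis genes passed the test between HKO and FLOX livers. The values were transcript abundances (TPM) scaled per transcript length and to each library's own total. They were compared as log2(TPM + 1) in limma, over all genes that reached 1 TPM in 4 or more libraries, at a Benjamini-Hochberg adjusted p of 0.05. Each of the 10 genes met this filter. Of all 12710 tested genes, 13 passed (0.102%), 6 higher (0.0472%) and 7 lower (0.0551%) in HKO livers. That count was 0 without HKO3 or FLOX1, 2 without HKO2, 3 without FLOX4 and 5 without HKO1. Among the 10 genes, 1 (*Ormdl3*) had an unadjusted p under 0.05, against 8.02% of all tested genes, and 0 had groups that did not overlap, against 4.74% of all tested genes. The difference (HKO minus FLOX) was positive in 5 and negative in 5, whereas 64.6% of all tested genes were positive. The median difference of the 10 genes was 0.01 and that of all tested genes 0.05 on the log2 scale. After median-of-ratios scaling these medians were -0.03 and 0.0036 with 50.8% of all tested genes positive, and after quantile normalization -0.03 and 0.0016 with 50.4% positive. Of the 10 genes, 5 were positive and 5 negative under both scalings. Without FLOX4, 3 of the 10 genes and 48.7% of all tested genes were positive (medians -0.05 and -0.0057), and without HKO1, 6 and 72.5% (medians 0.09 and 0.10). The median size of the difference, regardless of sign, was 0.10 for the 10 genes and 0.11 for all tested genes. The targeted gene *Smpd3* stood at 1.17, 3.03, 1.27 and 2.06 TPM in HKO1 to HKO4, against 8.69, 10.7, 12.5 and 6.38 TPM in FLOX1 to FLOX4 (2-sided exact permutation test, p = 0.0286, the smallest that 70 assignments can give).

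**Figure D1:**
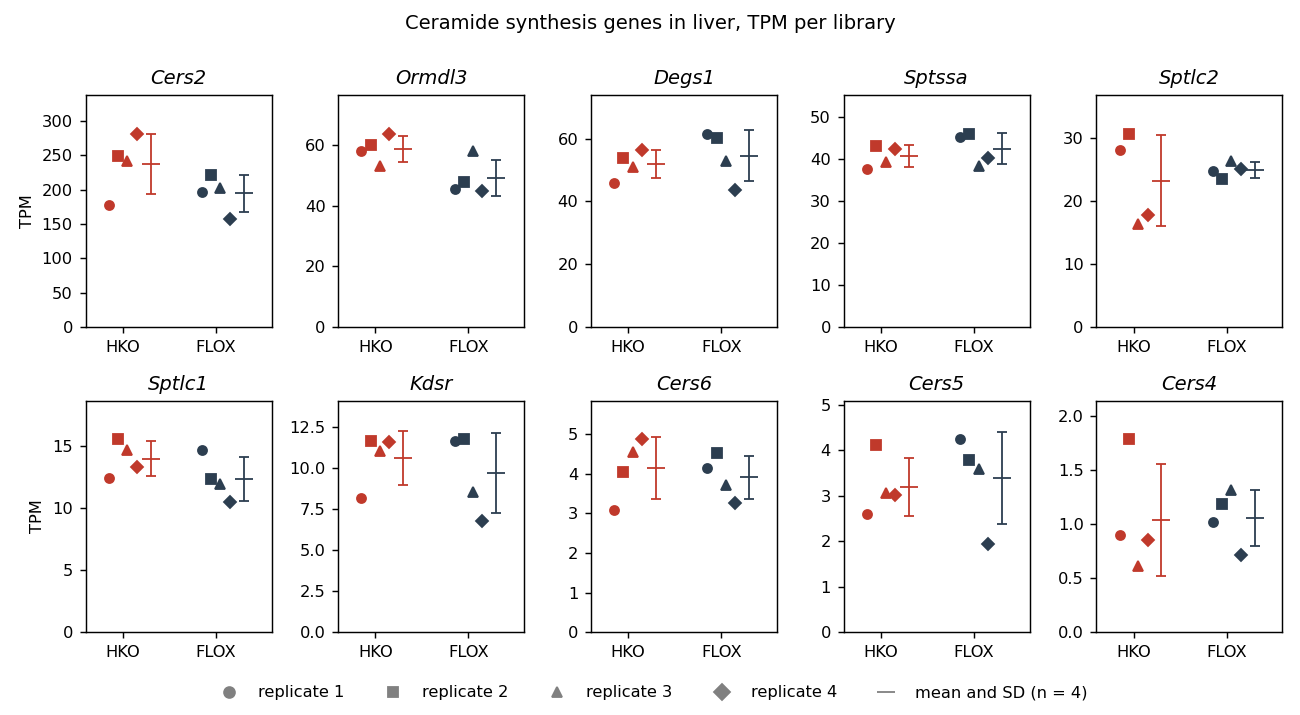
TPM of each of the 10 ceramide synthesis genes in each HKO and FLOX library, with a vertical axis of its own per gene that starts at 0. Marker shapes give the replicate number and the bars the mean and SD of 4 libraries. In every gene the groups overlap, and *Sptlc2* runs from 16.4 to 30.6 TPM in HKO livers, against 23.5 to 26.4 TPM in FLOX livers.

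The levels of the 10 genes spanned a wide range, and their order was much the same in all libraries. *Cers2* was the most abundant, with a mean of 216 TPM over the 8 libraries, and it ranked 568th among all genes of the table. *Ormdl3* (53.9 TPM) and *Degs1* (53.2 TPM) followed and did not differ beyond their spread: *Ormdl3* was the higher of the pair in 4 of 4 HKO and 2 of 4 FLOX libraries. Next came *Sptssa* (41.6 TPM), *Sptlc2* (24.1 TPM), *Sptlc1* (13.1 TPM) and *Kdsr* (10.2 TPM), each above the next in 8 of 8 libraries. *Cers6* (4.02 TPM) and *Cers5* (3.30 TPM) exchanged places in 2 libraries, HKO2 and FLOX1. *Cers4* was the lowest in every library, with a mean of 1.05 TPM.

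The start regions of 3 genes are shown because the results turn on them: *Cers2* carries nearly all ceramide synthase RNA, *Sptlc2* varied most within the HKO group among the 10 genes on the log2(TPM + 1) scale, and *Ormdl3* had the smallest p. They are RefSeq promoter windows of 300 bases on GRCm38.p6, written 5′ to 3′ on the strand of the gene. This build belongs to the sequence table, and the build used for the deposited values is not known to match it.
Cers2 promoter window, chr3:95314940-95315239, plus strand: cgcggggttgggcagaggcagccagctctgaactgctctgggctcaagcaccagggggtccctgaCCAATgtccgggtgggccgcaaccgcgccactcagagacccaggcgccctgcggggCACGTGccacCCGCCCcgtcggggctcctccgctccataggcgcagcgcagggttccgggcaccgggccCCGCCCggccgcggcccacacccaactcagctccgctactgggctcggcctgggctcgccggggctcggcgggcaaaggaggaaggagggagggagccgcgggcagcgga
Sptlc2 promoter window, chr12:87388306-87388605, minus strand: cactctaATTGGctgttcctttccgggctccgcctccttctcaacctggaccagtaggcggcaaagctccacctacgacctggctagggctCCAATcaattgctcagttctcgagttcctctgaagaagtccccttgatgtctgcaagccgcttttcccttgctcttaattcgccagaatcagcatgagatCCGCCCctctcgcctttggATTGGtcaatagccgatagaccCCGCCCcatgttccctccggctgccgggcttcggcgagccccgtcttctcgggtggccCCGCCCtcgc
Ormdl3 promoter window, chr11:98587196-98587495, minus strand: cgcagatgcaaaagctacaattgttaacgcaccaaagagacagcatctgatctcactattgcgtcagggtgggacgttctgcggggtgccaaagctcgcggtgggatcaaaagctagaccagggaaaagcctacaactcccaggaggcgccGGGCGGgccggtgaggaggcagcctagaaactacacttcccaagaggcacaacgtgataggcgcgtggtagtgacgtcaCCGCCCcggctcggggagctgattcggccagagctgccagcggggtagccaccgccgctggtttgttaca
Capitals mark 3 kinds of literal match on either strand, which do not overlap one another in these windows: the E-box CACGTG, the CCAAT box CCAAT and the GC box GGGCGG. The *Cers2* window holds 1 E-box, 1 CCAAT box and 2 GC boxes, that of *Sptlc2* 3 CCAAT boxes and 3 GC boxes, and that of *Ormdl3* 2 GC boxes. Of 32851 such windows in the table, 7.15% hold the E-box, 37.4% the CCAAT box and 35.7% the GC box. RefSeq lists a further start for *Cers2*, so the 10 genes have 11 windows. The window of that further start, not printed, holds 0 E-boxes, 0 CCAAT boxes and 0 GC boxes. The E-box letters occur in 1 window each of *Cers2*, *Cers6* and *Degs1*, and thus in 3 of the 11. The GC box is in 8 and the CCAAT box in 5 of the 11. These 11 windows hold 54.3 to 75% G and C, against a median of 52.7% over all windows. The part of this base composition in the counts was not tested. TATAAA is in 0 of the 11 windows and in 13.6% of all windows. These matches describe the sequence and were not tested for binding.

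Serine palmitoyltransferase is a complex of SPTLC1, SPTLC2 and a small subunit such as that encoded by *Sptssa*. *Sptlc2* (ENSMUSG00000021036), which encodes the subunit with the catalytic pyridoxal phosphate site, stood at 28.1, 30.6, 16.4 and 17.7 TPM in HKO1 to HKO4, against 24.8, 23.5, 26.4 and 25.0 TPM in FLOX1 to FLOX4. HKO1 and HKO2 lay above every FLOX library, and HKO3 and HKO4 lay below every FLOX library. The mean was 23.2 ± 7.21 TPM in HKO and 24.9 ± 1.21 TPM in FLOX livers (SD, n = 4 each). The difference was -0.15 on the log2 scale, with 95% limits of -0.57 and 0.27 (limma adjusted p = 0.923). Its SD within the HKO group, 0.44 on the log2 scale, was larger than that of 92.7% of all tested genes, whereas its SD within the FLOX group, 0.07, was larger than that of 4.63%. The difference was -0.29 without HKO2, -0.25 without HKO1, -0.01 without HKO3 and -0.04 without HKO4. It was -0.21 after median-of-ratios scaling and -0.22 after quantile normalization, and it did not pass in any of these. In bulk tissue such as this, fewer cells of a type and less RNA per cell cannot be told apart.

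Within the HKO group the other subunits varied less. *Sptlc1* (ENSMUSG00000021468), whose product pairs with SPTLC2, stood at 12.4, 15.5, 14.6 and 13.3 TPM in HKO livers, against 14.7, 12.3, 11.9 and 10.4 TPM in FLOX livers. All 4 HKO libraries lay within or just above the FLOX range, and the difference was 0.17 with limits of -0.11 and 0.45 (adjusted p = 0.840). It was 0.10 without FLOX4, 0.25 without FLOX1 and 0.11 under either scaling above. *Sptssa* (ENSMUSG00000044408), which encodes a small activating subunit, stood at 37.8, 43.3, 39.3 and 42.5 TPM in HKO livers, against 45.4, 46.1, 38.5 and 40.2 TPM in FLOX livers. Its highest library was 1.22 times its lowest, the narrowest span of the 10 genes. Its limits, -0.27 and 0.15, were also the narrowest (difference -0.06, adjusted p = 0.943, and -0.11 to -0.02 with a library left out). The *Sptssa* difference was -0.12 after median-of-ratios scaling and -0.13 after quantile normalization.

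Ratios between genes of a library do not depend on the library's total. *Sptlc2* RNA was 2.27, 1.97, 1.12 and 1.33 times that of *Sptlc1* in HKO1 to HKO4, against 1.69, 1.91, 2.21 and 2.40 times in FLOX1 to FLOX4. The ratio was thus lowest in HKO3 and HKO4 and highest in FLOX4, and the groups overlapped. *Sptssa* RNA was 1.89 ± 0.59 times that of *Sptlc2* in HKO and 1.71 ± 0.23 times in FLOX livers (SD, n = 4 each). These ratios are descriptions, without a test.

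**Figure D2:**
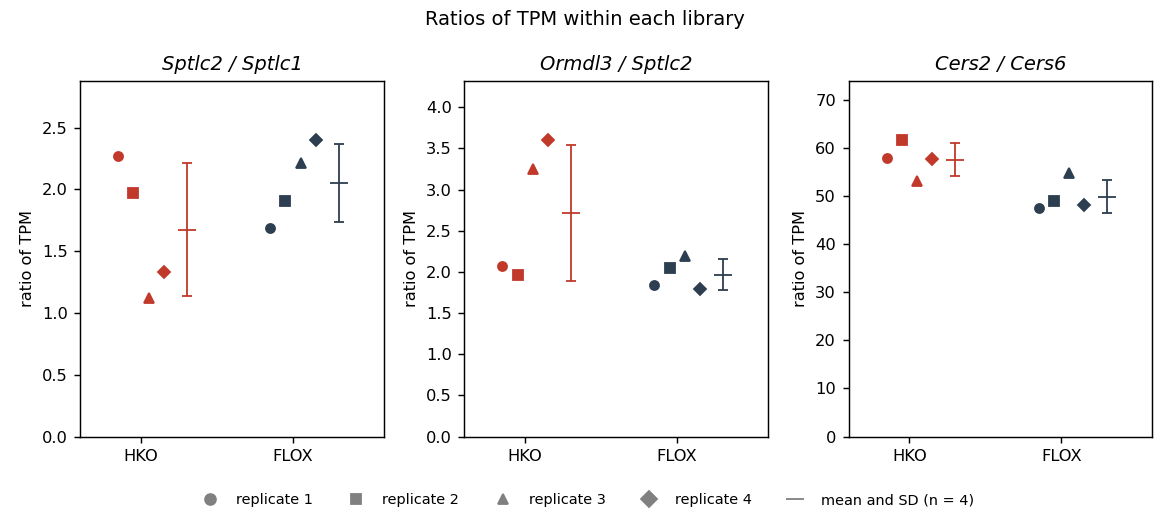
Ratios of TPM within each library for *Sptlc2* over *Sptlc1*, *Ormdl3* over *Sptlc2* and *Cers2* over *Cers6*, in HKO and FLOX livers, on axes that start at 0. Bars give the mean and SD of 4 libraries. The first runs from 1.12 to 2.27 in HKO livers, against 1.69 to 2.40 in FLOX livers, and the groups overlap in all 3 ratios.

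*Ormdl3* (ENSMUSG00000038150), an inhibitor of serine palmitoyltransferase, had the smallest p of the 10 genes. It stood at 58.0, 60.0, 53.1 and 63.7 TPM in HKO livers, against 45.7, 47.9, 58.0 and 44.9 TPM in FLOX livers. FLOX3 lay among the HKO libraries, and the other 3 FLOX libraries lay below all of them. The mean was 58.7 ± 4.41 TPM in HKO and 49.1 ± 6.05 TPM in FLOX livers (SD, n = 4 each), a difference of 0.26 with limits of 0.03 and 0.49. The unadjusted p was 0.0316 and the limma adjusted p 0.561, so *Ormdl3* did not pass. Without FLOX3 the difference was 0.34 (adjusted p = 0.386), and without HKO4 or FLOX4 it was 0.22. The unadjusted limma p was above 0.05 in 10 of the 19 other settings: in 5 of the 8 that leave out a library (HKO2, HKO4, FLOX1, FLOX2 or FLOX4; 0.0626 to 0.0876), with median-of-ratios scaling (0.102), with quantile normalization (0.0739), with array weights (0.0554), with the replicate number as a block (0.0852), and with HKO1 and FLOX4 both left out (0.0955).

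The other ORMDL genes were set beside it. *Ormdl2*, an ORMDL gene of like function, averaged 50.1 ± 4.37 TPM in HKO and 49.5 ± 1.53 TPM in FLOX livers (SD, n = 4 each; difference 0.01, limits -0.18 and 0.21). *Ormdl1* averaged 16.6 ± 2.10 TPM in HKO and 15.6 ± 2.20 TPM in FLOX livers (SD, n = 4 each; difference 0.09, limits -0.21 and 0.39, and 0.0046 to 0.17 with a library left out). *Ormdl3* made up 46.8 ± 1.94% of the summed ORMDL TPM in HKO and 42.9 ± 3.58% in FLOX livers (SD, n = 4 each), with overlap. The summed ORMDL TPM was 119 to 134 in HKO and 107 to 120 in FLOX livers. *Ormdl3* RNA was 2.07, 1.96, 3.25 and 3.60 times that of *Sptlc2* in HKO1 to HKO4, against 1.84, 2.04, 2.20 and 1.79 times in FLOX1 to FLOX4. HKO3 and HKO4, the libraries with the least *Sptlc2*, stood highest. Since *Sptlc2* is the divisor of this ratio, that largely restates its own values. *Rtn4*, whose product Nogo-B is also known to restrain serine palmitoyltransferase, averaged 97.1 ± 11.8 TPM in HKO and 95.1 ± 16.4 TPM in FLOX livers (SD, n = 4 each; difference 0.04, limits -0.26 and 0.34).

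*Kdsr* (ENSMUSG00000009905), the reductase of the second step, stood at 8.21, 11.7, 11.0 and 11.6 TPM in HKO livers, against 11.6, 11.8, 8.56 and 6.79 TPM in FLOX livers. HKO1, FLOX3 and FLOX4 were low and the other 5 libraries lay between 11.0 and 11.8 TPM. The difference was 0.14 with limits of -0.27 and 0.55 (adjusted p = 0.934), and it was -0.0036 without FLOX4.

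Among the ceramide synthases, *Cers2* (ENSMUSG00000015714) had the largest difference. It stood at 178, 249, 241 and 281 TPM in HKO livers, against 197, 221, 203 and 157 TPM in FLOX livers. HKO2, HKO3 and HKO4 lay above all FLOX libraries, whereas HKO1 lay below 3 of them. The mean was 237 ± 43.1 TPM in HKO and 195 ± 26.9 TPM in FLOX livers (SD, n = 4 each), a difference of 0.28 with limits of -0.05 and 0.60. *Cers2* did not pass (unadjusted p = 0.0849, limma adjusted p = 0.699). The difference was 0.41 without HKO1 (adjusted p = 0.269) and 0.18 without FLOX4 (adjusted p = 0.819). With both left out, a choice made after the values were seen, it was 0.31 (adjusted p = 0.294). Median-of-ratios scaling and quantile normalization each gave 0.22. The unadjusted limma p was 0.00748 without HKO1, 0.0263 with array weights and 0.00821 with HKO1 and FLOX4 both left out. It was above 0.05 in every other setting, and *Cers2* did not pass after adjustment in any.

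*Cers6* (ENSMUSG00000027035) stood at 3.08, 4.04, 4.54 and 4.87 TPM in HKO livers, against 4.14, 4.52, 3.70 and 3.27 TPM in FLOX livers. *Cers5* (ENSMUSG00000023021) stood at 2.60, 4.11, 3.06 and 3.02 TPM in HKO livers, against 4.25, 3.80, 3.59 and 1.94 TPM in FLOX livers. In both genes HKO1 was the lowest HKO library and FLOX4 the lowest FLOX library. The difference was 0.06 for *Cers6* (limits -0.29 and 0.40) and -0.04 for *Cers5* (limits -0.49 and 0.40). *Cers4* (ENSMUSG00000008206) stood at 0.90, 1.79, 0.61 and 0.85 TPM in HKO livers, against 1.02, 1.19, 1.32 and 0.72 TPM in FLOX livers (difference -0.04, limits -0.47 and 0.39). *Cers4* reached 1 TPM in 4 libraries, HKO2 and FLOX1 to FLOX3, and so passed the filter without a library to spare. The log2(TPM + 1) scale understates differences at levels this low.

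*Cers2* made up most of the RNA of the 4 ceramide synthase genes. Its share of their summed TPM was 96.4, 96.2, 96.7 and 97.0% in HKO1 to HKO4, against 95.4, 95.9, 95.9 and 96.4% in FLOX1 to FLOX4. The mean share was 96.6 ± 0.36% in HKO and 95.9 ± 0.38% in FLOX livers (SD, n = 4 each), a difference of 0.67 percentage points, and the groups overlapped through HKO2 and FLOX4. *Cers6* held 1.68 ± 0.11% in HKO and 1.93 ± 0.12% in FLOX livers, *Cers5* 1.32 ± 0.24% in HKO and 1.65 ± 0.36% in FLOX livers, and *Cers4* 0.43 ± 0.20% in HKO and 0.52 ± 0.08% in FLOX livers (SD, n = 4 each). *Cers2* RNA was 53.1 to 61.6 times that of *Cers6* in HKO livers, against 47.5 to 54.9 times in FLOX livers, where FLOX3 reached into the HKO range. Shares and ratios were described without a test.

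*Degs1* (ENSMUSG00000038633), the desaturase of the last step, stood at 46.0, 53.8, 51.1 and 56.5 TPM in HKO livers, against 61.5, 60.2, 53.0 and 43.7 TPM in FLOX livers. FLOX1 and FLOX2 lay above all HKO libraries and FLOX4 below all of them. The mean was 51.8 ± 4.48 TPM in HKO and 54.6 ± 8.21 TPM in FLOX livers (SD, n = 4 each). The difference was -0.07 with limits of -0.33 and 0.20 (adjusted p = 0.956). It was -0.17 without FLOX4 and -0.11 without HKO4, against -0.0045 without FLOX1 and -0.01 without FLOX2 or HKO1. Both scalings, quantile normalization and median-of-ratios, gave -0.12.

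**Figure D3:**
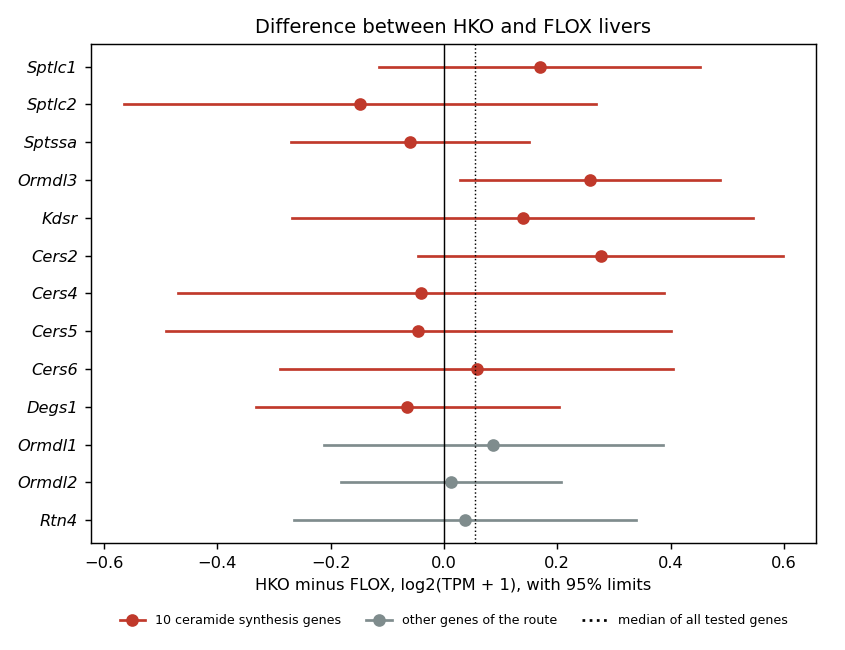
Difference between HKO and FLOX livers on the log2(TPM + 1) scale, with 95% limits from limma, for the 10 ceramide synthesis genes (red) and for *Ormdl1*, *Ormdl2* and *Rtn4* (grey). The dotted line is the median of all tested genes, 0.05. With all 8 libraries and TPM as deposited, *Ormdl3* has limits above 0 (0.03 to 0.49), which include 0 in 10 of the 19 other settings, and the limits of the other 12 genes include 0.

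The other enzyme genes of the route were at 0 or low in these livers. *Sptlc3*, an alternative to *Sptlc2*, was listed at 0 in all 8 libraries. *Sptssb*, the other small subunit gene, reached at most 0.07 TPM, *Cers1* 0.06 TPM and *Cers3* 0.02 TPM. *Degs2*, which also adds a hydroxyl group, was listed at 0.65, 0.55, 0 and 0.35 TPM in HKO livers, against 0.63, 1.27, 0.34 and 0.26 TPM in FLOX livers. Of the 8 further genes of the route, 3 were tested (*Ormdl1*, *Ormdl2* and *Rtn4*), and 0 passed in either direction.

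Genes that use ceramide or supply the route were counted in the same fit, and 0 of 53 tested passed, those 3 included. Of 8 tested genes of ceramide transfer and conversion, 5 had positive and 3 negative differences (median 0.07). *Sgms2*, a sphingomyelin synthase gene of the plasma membrane, averaged 12.2 ± 1.97 TPM in HKO and 9.23 ± 1.80 TPM in FLOX livers (SD, n = 4 each; difference 0.37, adjusted p = 0.606). *Sgms1*, the sphingomyelin synthase gene of the Golgi, averaged 7.93 ± 1.75 TPM in HKO and 5.95 ± 2.24 TPM in FLOX livers (difference 0.40, adjusted p = 0.750). Without FLOX4 the *Sgms1* difference was 0.21. Of 9 tested genes of ceramide breakdown and sphingosine metabolism, 4 had positive and 5 negative differences (median -0.01). The alkaline ceramidase gene *Acer2* had a difference of -0.49 and the sphingosine phosphate lyase gene *Sgpl1* one of 0.20 (adjusted p = 0.735 and 0.859). Without HKO1 the *Acer2* difference was -0.29. The *Sgpl1* difference was 0.06 without FLOX4, 0.13 without HKO4, 0.30 without HKO1 and 0.13 under quantile normalization.

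On the side of the precursors, 7 genes of serine supply were tested, with 3 positive and 4 negative differences (median -0.01). *Slc1a4*, a serine and alanine transporter gene, stood at 4.37, 8.20, 6.25 and 7.89 TPM in HKO livers, against 4.52, 4.73, 3.79 and 3.01 TPM in FLOX livers. HKO1 lay within the FLOX range and the other HKO libraries above it (difference 0.60, adjusted p = 0.392). *Psph*, the phosphatase of the last step of serine synthesis, had a difference of 0.29 (adjusted p = 0.742), and 0.16 without FLOX4. Of 26 tested genes of fatty acyl-CoA supply, 18 had positive and 8 negative differences (median 0.06). In 3 of them (11.5%) the groups did not overlap, against 4.74% of all tested genes. *Slc27a2*, a gene for fatty acid uptake and very long chain acyl-CoA synthesis, stood at 580, 533, 542 and 586 TPM in HKO livers, against 701, 639, 726 and 679 TPM in FLOX livers. Every HKO library lay below every FLOX library (difference -0.29, limits -0.44 and -0.14, adjusted p = 0.200). *Hacd2*, a dehydratase gene of fatty acid elongation, stood at 51.6, 38.2, 39.5 and 48.3 TPM in HKO livers, against 26.3, 33.5, 33.2 and 30.2 TPM in FLOX livers. Every HKO library lay above every FLOX library (difference 0.51, limits 0.23 and 0.79, adjusted p = 0.212).

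Part of the spread of the 10 genes ran with single libraries. HKO1 was the lowest HKO library in 7 of the 10 genes, and FLOX4 the lowest FLOX library in 8 of them. *Sptlc2* followed neither, since HKO1 was above and FLOX4 near the FLOX mean. No such counts are given for all tested genes, so they are not read as a trait of the 10. The share of all tested genes with a positive difference, 64.6% with all 8 libraries, was 48.7% without FLOX4 and 72.5% without HKO1. FLOX4 also had the fewest genes that reached 1 TPM (12115, against 12474 to 12890 in HKO and 12678 to 12871 in the other FLOX libraries), and the largest share of TPM in mitochondrially encoded genes (8.92%, against 6.74 to 8.04% in HKO and 6.72 to 7.47% in the other FLOX libraries). Its summed hepatocyte markers were the highest of all libraries (11 of 12 listed genes found), at 65728 to 73987 TPM in HKO and 72701 to 86310 TPM in FLOX livers. *Alb* gave 52162 TPM of the FLOX4 sum. FLOX4 was the highest library for *Alb*, *Apoa1*, *Apob* and *Apoc3*. Another library was the highest for *Ttr*, *Fgb*, *Fga*, *Hnf4a*, *Cps1*, *Pck1* and *Ass1*.

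In FLOX4 the summed markers of other cells were the lowest of all libraries for 5 of 7 cell types. Cholangiocytes and B and plasma cells were the exceptions. Abundant genes weigh most in these sums. In FLOX4 *Xbp1* made up 163 of the 173 TPM of B and plasma cell markers, and *Lyz2* 692 of the 1168 TPM of macrophage markers. *Marco* stood at 17.9 TPM in FLOX4, within the range of the other FLOX libraries (16.7 to 20.1 TPM), so a sum need not hold for each gene. The endothelial markers (12 genes) summed to 104 to 133 TPM in HKO and 79.2 to 183 TPM in FLOX livers. The Kupffer cell and macrophage markers (12 genes) summed to 1591 to 2236 TPM in HKO and 1168 to 2095 TPM in FLOX livers, and the stellate cell and fibroblast markers (12 genes) to 507 to 735 TPM in HKO and 301 to 650 TPM in FLOX livers. The T and NK cell markers (12 genes) summed to 20.2 to 48.6 TPM in HKO and 14.6 to 36.5 TPM in FLOX livers, and the neutrophil markers (6 genes) to 51.4 to 58.4 TPM in HKO and 37.4 to 64.4 TPM in FLOX livers. For the cholangiocyte markers (8 genes) the sums were 191 to 645 TPM in HKO and 256 to 478 TPM in FLOX livers, and for the B and plasma cell markers (8 genes) 147 to 183 TPM in HKO and 133 to 173 TPM in FLOX livers. No marker was listed at 0 in all 8 libraries. The part of these shifts in the values of the 10 genes was not tested.

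**Figure D4:**
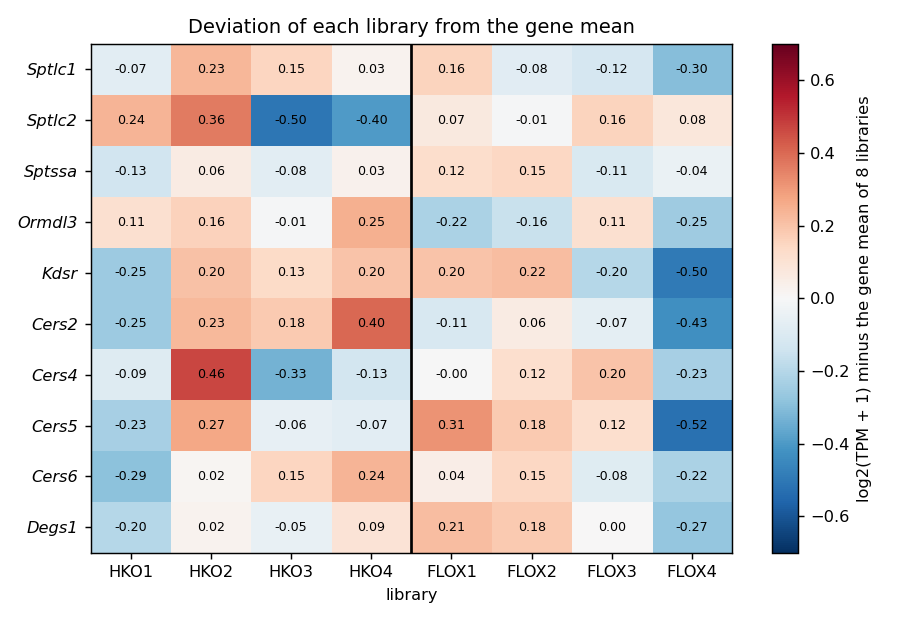
Deviation of each library from the gene's mean over 8 libraries, on the log2(TPM + 1) scale, for the 10 ceramide synthesis genes, with HKO left of the line and FLOX right of it. Red is above and blue below the mean. HKO1 and FLOX4 are below the mean in 8 and 9 of the 10 genes, and *Sptlc2* is at 0.24, 0.36, -0.50 and -0.40 in HKO1 to HKO4. No such count below the mean is given for all tested genes.

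The genes whose profiles lay closest to 3 of the 10 were found by the mean absolute difference of centred log2(TPM + 1) values over the 8 libraries, among 8443 other genes with a mean of at least 5 TPM. For *Sptlc2* these were *Timm17a*, a subunit gene of the mitochondrial import channel (0.08), and *Smim26* (0.09), where the median over all candidates was 0.30. *Timm17a* stood at 28.6, 34.0, 18.5 and 22.9 TPM in HKO livers, against 28.6, 29.8, 32.5 and 29.2 TPM in FLOX livers. For *Cers2* they were *Vps26c*, an endosomal sorting gene (0.04), and *Avpr1a*, a vasopressin receptor gene (0.04), with a median of 0.20. For *Degs1* they were *Chdh*, the choline dehydrogenase gene (0.03), and *Golga7* (0.03), with a median of 0.15. All of these were picked as the closest among 8443 genes over only 8 libraries, so small differences follow in part from the search. Shared regulation was not tested.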

How the data were processed

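The authors deposited 1 table of TPM values, rounded to 2 decimals, for 8 mouse liver libraries and 55416 gene identifiers. Per the labels' protocols, the kit kept strand and used total RNA. RSEM 1.3.3 and GRCh38.p13, a human build, are named in the submitters' processing notes, although the identifiers are mouse genes. The sources used here name no aligner, annotation release or strand setting. TPM keeps no sequencing depth, so depth is unknown, no counting interval is given, and a shift in abundant transcripts moves every other value.

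Symbols matched 52083 identifiers. *Cert1* is listed under its older symbol *Col4a3bp*, and the hepatocyte marker list entry *Tf* was not matched. HKO was compared with FLOX in limma 3.58.1 under R 4.3.3 (lmFit, eBayes with trend) on log2(TPM + 1), without covariates, and checked on simulated libraries. Adjusted p-values cover all 12710 tested genes. The genes, lists and tests were chosen with earlier results of these data known. Named besides the 10 are the 2 genes of smallest p of each list and the 2 closest profiles of *Sptlc2*, *Cers2* and *Degs1*. Other settings were 3 scalings, pseudocounts of 0.1 and 5, a mean filter of 5 TPM or none, robust eBayes, array weights, a block for the replicate number, and each library left out.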

Additional observations from a re-analysis of the deposited data

How the results depend on the processing

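No ceramide synthesis gene and no gene of the 5 related lists passed in any of the 19 other settings, and the smallest adjusted p of the 10 was 0.269 (*Cers2* without HKO1). Under a mean of at least 5 TPM, *Cers4*, *Cers5* and *Cers6* were not tested. Among the 10, the sign of the difference changed only when single libraries were left out, in 4 genes: *Kdsr* ranged from -0.0036 to 0.25, *Cers4* from -0.20 to 0.062, *Cers5* from -0.23 to 0.052 and *Cers6* from -0.011 to 0.16. *Rtn4*, beside the 10, ranged from -0.069 to 0.12 in this way, and was -0.021 after median-of-ratios scaling and -0.028 after quantile normalization. The cause of these turns was not tested. The count of all genes that passed, 13, was 8 and 6 with pseudocounts of 0.1 and 5, 0 without a filter (26719 genes tested) and 20 both after rescaling without mitochondrial and the 20 most abundant genes and with array weights. It ran from 0 to 16 with a library left out and was 0 with HKO1 and FLOX4 both left out. With the replicate number as a block it was 0. Same-numbered libraries did not deviate together (correlations of -0.15, 0.03, -0.15 and -0.20 across genes). Such deviations cannot tell whether the samples were matched by number, which the labels do not state. The *Smpd3* difference ran from -2.06 to -1.76 with a library left out and was -2.34 and -1.07 with pseudocounts of 0.1 and 5. The difference in the *Cers2* share ran from 0.51 to 0.82 percentage points with a library left out.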

Other observations

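Of the 45 ratios between pairs of the 10 genes, 1 (2.22%) did not overlap between the groups. No such share is given for pairs of all tested genes, so this count is not read as a trait of the 10. *Cers2* RNA was 3.87, 4.62, 4.73 and 4.97 times that of *Degs1* in HKO1 to HKO4, against 3.20, 3.67, 3.83 and 3.60 times in FLOX1 to FLOX4. HKO1 and FLOX3 lay close together, and the pair was chosen after its values were seen, so no test is given.

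*Acsl3*, a long chain acyl-CoA synthetase gene of lipid droplets and the endoplasmic reticulum, was the third gene of fatty acyl-CoA supply whose groups did not overlap, and it was named after its values were seen. It stood at 9.50, 10.8, 12.6 and 16.7 TPM in HKO livers, against 6.64, 9.13, 6.99 and 5.21 TPM in FLOX livers (difference 0.74, limits 0.31 and 1.17, limma adjusted p = 0.246). *Hacd3*, a dehydratase gene of fatty acid elongation like *Hacd2* and likewise named afterwards, averaged 64.9 ± 10.8 TPM in HKO and 82.3 ± 10.04 TPM in FLOX livers (SD, n = 4 each; difference -0.35, adjusted p = 0.526). *Hacd2* and *Hacd3* thus had differences of opposite sign, 0.51 and -0.35, and neither passed. The related genes *Hacd1* and *Hacd4* had differences of 0.06 and 0.13 (limma adjusted p = 0.959 and 0.936).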
